A study of Mus musculus with 12 samples.

Results

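Antimicrobial effectors are secreted proteins with which epithelia and phagocytes kill, starve, or hold off microbes. The 10 genes described here (*Lyz1*, *Lyz2*, *Lcn2*, *Reg3b*, *Reg3g*, *Ang4*, *Retnlb*, *Pla2g2a*, *S100a8*, and *S100a9*) were taken by gene name from the expression table of each library, and all 10 were found among 54532 genes. They were followed in whole colon and whole urinary bladder of control (Ctrl) and Y/T KO mice, in 12 libraries from 9 male mice, with 3 libraries for each tissue and genotype. In Y/T KO mice, floxed *Yap1* and *Wwtr1* (the genes of the transcriptional coactivators YAP and TAZ) were deleted by a tamoxifen-inducible Cre under the smooth muscle promoter Myh11, carried on the Y chromosome. Ctrl mice were floxed at both genes and lacked Cre, and tamoxifen was given to both genotypes alike, at 1 mg per mouse on each of 5 days. Tissue was taken on day 7 after the first injection from mice of 5 to 7 weeks with a mixed genetic background. The deletion was thus aimed at smooth muscle, whereas most of the effectors are known as products of epithelium or white blood cells, which the whole-tissue samples also held.

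Lysozyme cuts the peptidoglycan of the bacterial wall. *Lyz1* is known as the lysozyme of Paneth cells of the small intestine, and *Lyz2* as that of macrophages and other myeloid cells. Reg3 lectins, angiogenin 4, resistin-like molecule β (*Retnlb*), and the secreted phospholipase A2 of group IIA (*Pla2g2a*) damage bacterial membranes or keep bacteria off the epithelium, and in the gut come from Paneth, goblet, or absorptive cells. Lipocalin 2 (*Lcn2*) captures bacterial siderophores, and *S100a8* and *S100a9* encode calprotectin, a metal-binding protein abundant in neutrophils.

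*Lyz1* was the member with the lowest p between genotypes in colon and in bladder, and it was compared with its neighbor *Lyz2* at the level of sequence as well as expression. Both genes lie on the minus strand of chromosome 10 (GRCm38), *Lyz1* at 117287797 to 117292868 and *Lyz2* at 117277331 to 117282321, with 5475 bases between them. The sequences printed are the stretch upstream of each start in RefSeq (GRCm38.p6). The 49 bases nearest the start were left out because in *Lyz2* they belong to the annotated gene. The printed stretches compare the upstream regions of *Lyz1* and of *Lyz2*, a near copy. *Lyz1* did not overlap between genotypes in either tissue (limma adjusted p = 0.373 in colon and 0.107 in bladder), whereas *Lyz2* did. Capitals mark bases that differ from the other gene or face a gap in it.
Lyz1 (chr10:117292918-117293118, minus strand): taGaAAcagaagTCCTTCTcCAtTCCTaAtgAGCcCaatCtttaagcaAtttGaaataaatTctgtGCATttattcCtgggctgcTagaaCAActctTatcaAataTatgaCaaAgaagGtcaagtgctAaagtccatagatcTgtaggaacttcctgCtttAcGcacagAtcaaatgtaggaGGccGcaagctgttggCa
Lyz2 (chr10:117282322-117282522, minus strand): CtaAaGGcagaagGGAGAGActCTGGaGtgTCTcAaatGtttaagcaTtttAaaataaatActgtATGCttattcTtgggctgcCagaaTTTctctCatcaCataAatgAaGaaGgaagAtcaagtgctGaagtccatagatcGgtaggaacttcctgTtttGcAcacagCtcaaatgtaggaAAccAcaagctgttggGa
The printed stretches matched at 151 of 203 aligned positions (74.4%), whereas the longest transcripts matched at 1211 of 1262 (96.0%). Of windows of 50 bases along the transcript, 16.1% of *Lyz1* and 15.4% of *Lyz2* were identical between the pair. A read lying wholly within such a window cannot be assigned to either gene by its own sequence. The length and pairing of the reads were not taken into account. *Lyz2* was 7.11 to 242.4 times as high as *Lyz1* in TPM, so that the uncertainty falls mainly on *Lyz1*, whose whole value a minor share of *Lyz2* reads could match. How such reads were placed was not tested. *Ang4* shared 4.70% of its windows with *Ang2* and *Ang5*, which were listed at or near 0, and the other members shared none with another gene.

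A search on both strands of the 250 bases before the start covered the 8 members with a RefSeq promoter (all except *Retnlb* and *Pla2g2a*). The core of the TEAD site, GGAATG, through which YAP and TAZ reach DNA, was present in *Lyz1* alone among them, at 230 to 225 bases before the start on the opposite strand, where *Lyz2* differs. That is 1 of 8 members, a share near the 12.6% of 32851 mouse promoters of that length that held it. A C/EBP-type match (TTGCNNAA, in 9.56% of promoters) was found in *Lyz1*, *Lcn2*, and *S100a9*. A STAT-type match (TTCNNNGAA, in 7.02%) was found in *Reg3b* and *Ang4*. A TATA box (TATAAA, in 12.4%) was found in *Reg3b*, *Reg3g*, and *S100a8*. These are matches of letters only, and binding was not measured.

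Library facts that bear on these genes were as follows. Aligned sequence ran from 2.80 to 3.94 gigabases per library. *Yap1* was lower in Y/T KO than in Ctrl bladder (69.4 to 72.1 against 98.6 to 109.8 TPM, the transcript abundance corrected for transcript length and scaled to a fixed library total), and overlapped in colon (41.3 to 47.0 against 45.8 to 54.9 TPM), and *Wwtr1* overlapped in both tissues. These gene-level values include other cells of the tissue and transcript parts outside the floxed exons. The tissue labels held, with goblet cell markers summing to 27760 TPM or more in each colon library and 295.6 TPM or less in each bladder library, and urothelial markers to 40.1 TPM or less in colon and 4491 TPM or more in bladder. Seminal vesicle markers summed to 2.18 TPM or less in each library. The 5 smooth muscle markers summed to less in each Y/T KO library than in any Ctrl library of the same tissue (3445 to 4088 against 5310 to 5771 TPM in colon). In such bulk samples, fewer cells of a type and less RNA per cell cannot be told apart.

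**Figure D1:**
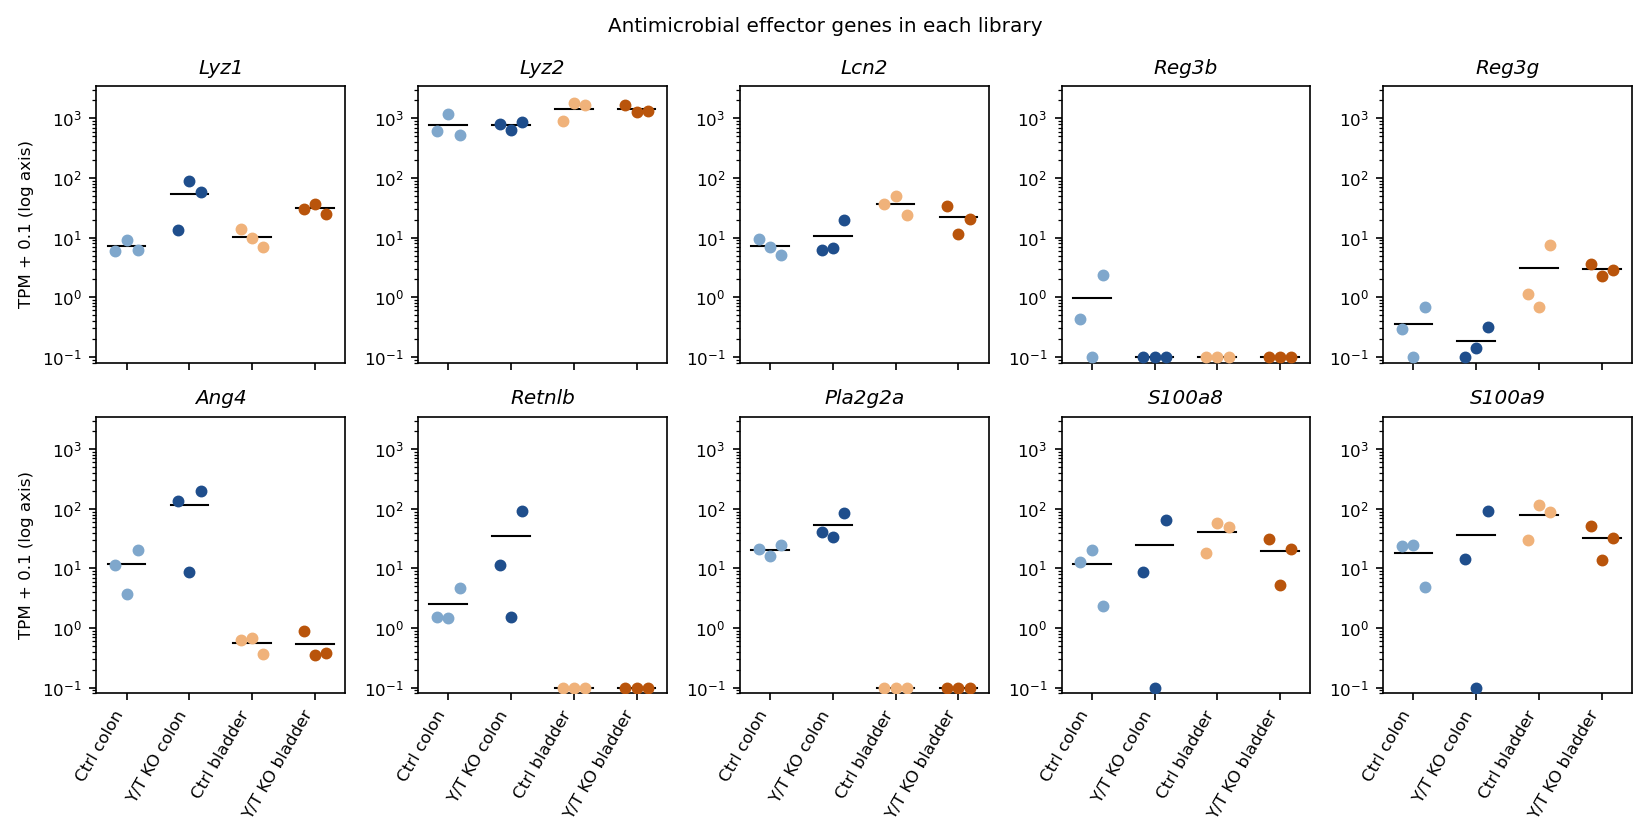
TPM + 0.1 on a log axis of each of the 10 genes in each of 12 libraries, with 3 libraries per group as points and the group mean as a line. *Lyz1* shows no overlap of genotypes in colon or bladder, *Pla2g2a* none in colon, and *Retnlb*, *Pla2g2a*, and *Reg3b* sit at the level of 0 TPM in all 6 bladder libraries.

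Ctrl and Y/T KO were compared within each tissue by limma on log2(TPM + 0.1), with Benjamini-Hochberg adjustment over all genes tested. Fold changes on this scale understate the change of low genes. In colon, 8 members passed the filter on low values and 0 were called at an adjusted p below 0.05, where 0.137% of all 17508 genes were called. At an unadjusted p below 0.05, 2 of the 8 passed (*Lyz1* and *Pla2g2a*), against 9.73% of all genes, and the same 2 were higher in each Y/T KO library than in any Ctrl library, against 7.53% of all genes. The 8 differences had a median of 0.89 on the log2 scale, 6 positive and 2 negative, beside a median of 0.0065 for all genes. In bladder, 7 members passed the filter and 0 were called, where 0.301% of all 18249 genes were called. *Lyz1* alone passed an unadjusted p below 0.05 there (1 of 7, against 14.8% of all genes), and *Lyz1* alone was higher in each Y/T KO library than in any Ctrl library (against 10.4%). The bladder differences had a median of -0.15, 3 positive and 4 negative, beside 0.0021 for all genes.

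**Figure D2:**
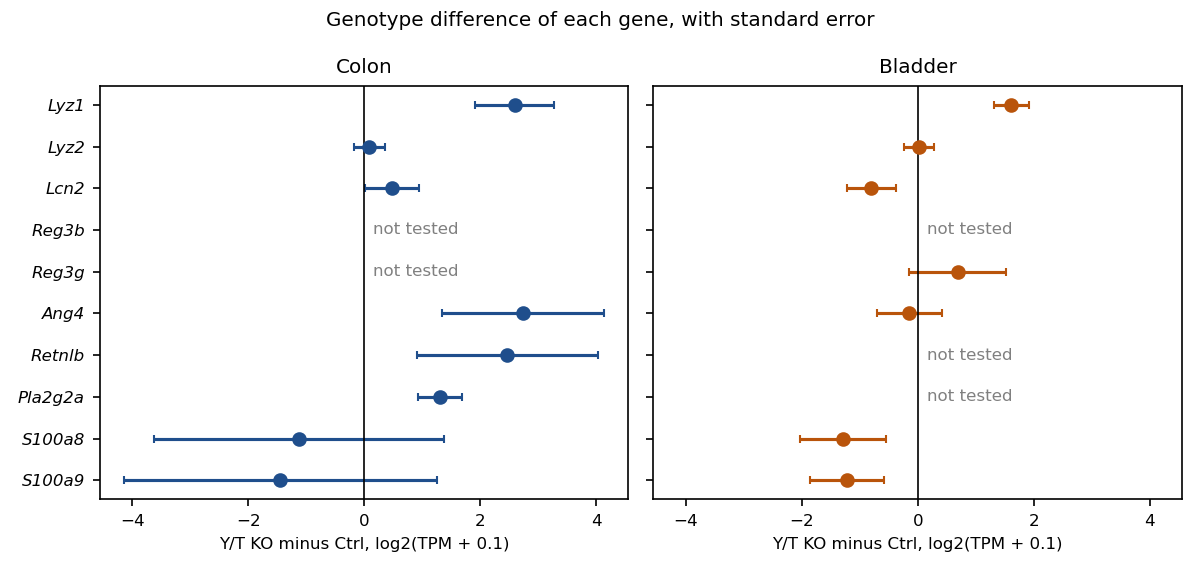
Y/T KO minus Ctrl difference of log2(TPM + 0.1) for each gene in colon (left) and bladder (right), with bars of 1 standard error from limma and 3 libraries per group. The *Lyz1* difference was 2.59 in colon and 1.61 in bladder, the *S100a8* and *S100a9* differences in colon have standard errors above 2, and genes under the filter on low values are marked as not tested.

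Ctrl colons held 5.93, 9.19, and 5.98 TPM of *Lyz1* (mice 788, 786, and 787, the order used for Ctrl colon throughout). Y/T KO colons held 13.3, 89.9, and 57.6 TPM (mice 759, 783, and 780, likewise). The groups did not overlap, and mouse 759 lay much closer to the Ctrl mice than the other two did. The difference was 2.59 on the log2 scale (SE, 0.68; limma adjusted p = 0.373), which did not pass the threshold. Without the Y/T KO colon of mouse 759 it was 3.41, with an adjusted p of 0.00356. Leaving out each of the 5 other colon libraries gave no call, with differences of 2.04 to 2.74 and adjusted p-values of 0.540 to 0.781. Ctrl bladders held 14.0, 9.93, and 6.92 TPM (mice 784, 785, and 788), against 30.6, 36.8, and 25.0 TPM for Y/T KO bladders (mice 782, 783, and 780). Here each Y/T KO value was above each Ctrl value, and the spread within a genotype was small (10.3 ± 3.57 against 30.8 ± 5.90 TPM; SD, n = 3). The bladder difference was 1.61 (SE, 0.30; limma adjusted p = 0.107). In their own comparison with DESeq2, the authors of the study named *Lyz1* among the transcripts induced in Y/T KO colon, where limma did not call it here.

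*Lyz2* was the most abundant member in all 4 groups and did not follow *Lyz1*. It measured 615, 1202, and 531 TPM among Ctrl colons, against 803, 639, and 857 TPM among Y/T KO colons. In bladder it measured 908, 1812, and 1677 TPM among Ctrl mice, against 1693, 1274, and 1333 TPM among Y/T KO mice. Genotypes overlapped in both tissues, with log2 differences of 0.09 (SE, 0.27) in colon and 0.02 (SE, 0.25) in bladder. The ratio of *Lyz2* to *Lyz1* TPM ran from 88.8 to 130.8 in Ctrl colon and was 60.5, 7.11, and 14.9 in the Y/T KO colons of mice 759, 783, and 780. In bladder it was 64.7, 182.5, and 242.4 in Ctrl (mice 784, 785, and 788) and 55.3, 34.6, and 53.2 in Y/T KO. The ratio was thus lower in each Y/T KO library than in any Ctrl library of its tissue. The 13 macrophage and monocyte markers summed to 530 to 720 TPM among Ctrl colons, against 667 to 1039 TPM among Y/T KO colons, and to 1195 to 1634 and 1013 to 1442 TPM in bladder. Of the Paneth cell markers, the defensins *Defa17*, *Defa24*, and *Defa30* were listed at 0 in all 12 libraries. *Itln1* (intelectin 1) was at 0.0618 to 1.99 TPM among Ctrl colons, against 1.79 to 4.33 TPM among Y/T KO colons, and *Mmp7* (matrilysin) at 0 in Ctrl colon and 0.469 to 0.912 TPM in Y/T KO colon. Neither was higher by group mean in Y/T KO bladder. There *Itln1* was at 0.0824 to 0.5615 TPM in Ctrl and at 0 in Y/T KO, and *Mmp7* at 0 to 6.49 against 0 to 2.20 TPM.

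**Figure D3:**
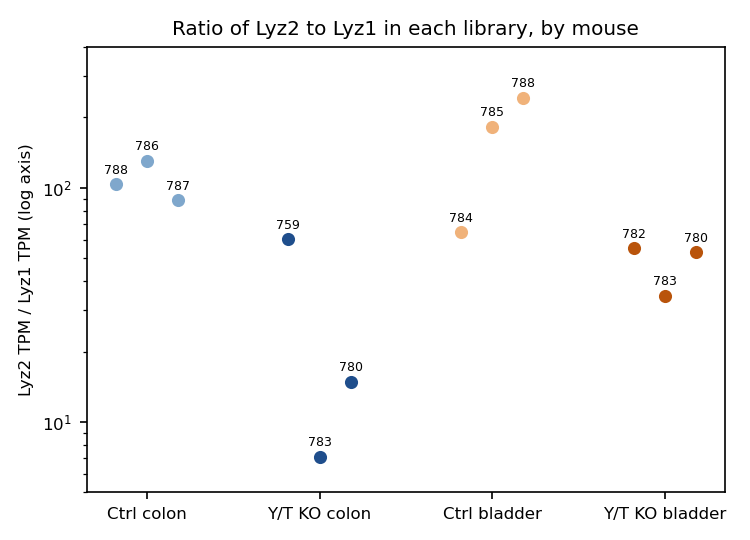
Ratio of *Lyz2* to *Lyz1* TPM (log axis) in each of the 12 libraries, labeled by mouse. Y/T KO ratios (7.11 to 60.5 in colon and 34.6 to 55.3 in bladder) lie below all Ctrl ratios of the same tissue (88.8 and above in colon, 64.7 and above in bladder).

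*Pla2g2a*, *Ang4*, and *Retnlb* were listed at 0 or below 1 TPM in bladder, and in colon their genotype differences were positive but not called. *Pla2g2a* measured 21.1, 16.0, and 24.7 TPM among Ctrl colons, against 41.5, 33.1, and 85.7 TPM among Y/T KO colons. The groups did not overlap, and the difference was 1.30 on the log2 scale (SE, 0.38; limma adjusted p = 0.400). It was 0.89 (adjusted p = 0.677) without the Y/T KO colon of mouse 780. Some inbred mouse strains carry a disrupted *Pla2g2a*, and the alleles of these mice were not analysed here.

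*Ang4*, a bactericidal ribonuclease, measured 11.2, 3.67, and 20.2 TPM among Ctrl colons, against 136, 8.57, and 202 TPM among Y/T KO colons. Mice 759 and 780 were above all Ctrl mice, whereas mouse 783 lay within the Ctrl range. The difference of 2.74 had an SE of 1.40 (limma adjusted p = 0.600). *Retnlb*, a goblet cell product, had the same order of Y/T KO mice. It measured 1.44, 1.36, and 4.55 TPM among Ctrl colons, against 11.4, 1.44, and 93.5 TPM among Y/T KO colons, a difference of 2.47 (SE, 1.56; limma adjusted p = 0.651). Without mouse 780, the difference was 1.88 for *Ang4* and 0.97 for *Retnlb*, and without mouse 783 it was 4.17 and 3.95, with adjusted p-values of 0.312 or more in these fits.

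Across the 6 colon libraries, log2(TPM + 0.1) of *Ang4* and *Retnlb* had a Pearson r of 0.92, *Retnlb* and *Pla2g2a* of 0.91, and *Ang4* and *Pla2g2a* of 0.88. These are descriptions over 6 libraries that share the genotype difference. *Lyz1* had an r of 0.28 to *Ang4*, 0.36 to *Retnlb*, and 0.67 to *Pla2g2a*, and it was highest in mouse 783 and lowest among Y/T KO mice in 759. Goblet cell markers summed to 27760 to 39460 TPM among Ctrl colons, against 28860 to 36570 TPM among Y/T KO colons. *Muc2*, a marker on that list, was listed at only 0.0288 to 0.253 TPM among Ctrl colons, against 0.0854 to 0.918 TPM among Y/T KO colons. It thus added almost nothing to the sum. Of the leading goblet markers, *Zg16* (a lectin of the mucus) overlapped between genotypes at 14320 to 21630 against 10060 to 18650 TPM. *Spink4* (a secreted protease inhibitor) did not, at 2691 to 4551 TPM in Ctrl and 5237 to 7969 TPM in Y/T KO, although it was not called (log2 difference, 0.93; SE, 0.28; limma adjusted p = 0.403). Of all colon genes, 7.53% were higher in each Y/T KO library than in any Ctrl library. The part of goblet cell number in the *Ang4* and *Retnlb* values was not tested.

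*S100a8* and *S100a9*, which lie on chromosome 3 with 22596 bases between them, varied together from library to library, and their genotypes overlapped in both tissues. *S100a8* measured 12.8, 20.5, and 2.24 TPM among Ctrl colons, against 8.69, 0, and 63.9 TPM among Y/T KO colons. *S100a9* measured 23.6, 25.1, and 4.75 TPM among Ctrl colons, against 14.1, 0, and 93.5 TPM among Y/T KO colons. The highest and the lowest colon library were thus both Y/T KO (mice 780 and 783). Mean TPM was higher in Y/T KO colon (24.2 against 11.8 for *S100a8* and 35.9 against 17.8 for *S100a9*), whereas the differences on the log2 scale were negative, at -1.12 (SE, 2.50) and -1.44 (SE, 2.70). They were -0.16 and -0.42 with a pseudocount of 1 TPM, and 1.52 and 1.40 without mouse 783, where both genes were listed at 0. None of these differences was called. The pair kept a ratio of *S100a9* to *S100a8* of 1.22 to 2.70 in the 11 libraries where both were detected.

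In bladder, *S100a8* measured 18.4, 57.3, and 48.7 TPM among Ctrl mice, against 31.3, 5.14, and 21.3 TPM among Y/T KO mice. *S100a9* measured 30.1, 115, and 86.8 TPM among Ctrl mice, against 52.2, 13.9, and 32.7 TPM among Y/T KO mice. Group means were lower in Y/T KO (41.5 ± 20.4 against 19.2 ± 13.2 TPM for *S100a8*; SD, n = 3), but the ranges overlapped and neither difference was called (-1.29 and -1.22 on the log2 scale; limma adjusted p = 0.467 and 0.432). Neutrophil markers followed the pair in part. The marker *Ly6g* was listed at 112 to 201 TPM in each colon library and at 0.299 TPM or less in bladder, out of step with the other neutrophil genes, so that the sum was also taken without it. The 11 other markers summed to 11.8, 12.8, and 2.94 TPM in Ctrl colon against 9.68, 6.81, and 50.5 TPM among Y/T KO colons. In bladder they summed to 61.7 to 95.5 TPM among Ctrl mice, against 50.4 to 75.6 TPM among Y/T KO mice. Of these markers 6 were tested in bladder and 0 were called. Of their differences 5 were negative, as for the pair, and 1 was positive (median, -0.82, beside 0.0021 for all genes). Among the negative ones, that of *Retnlg* was only -0.0086 (SE, 0.39). The positive one was that of the leading marker *Mmp9* (gelatinase B), which averaged 32.0 TPM among Ctrl mice, against 32.3 TPM among Y/T KO mice. In colon, 7 of the 12 markers (with *Ly6g*) were tested and 0 were called. Of these differences 6 were positive and 1 negative (median, 0.56, beside 0.0065 for all genes), whereas both log2 differences of the pair were negative there. In colon the sum and the pair were both highest in Y/T KO mouse 780, but the sum was lowest in Ctrl mouse 787 and the pair in Y/T KO mouse 783. From 1 to 7 of the 11 were listed at 0 in a colon library and 3 or 4 in a bladder library. The part of neutrophil number in the calprotectin values was not tested.

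**Figure D4:**
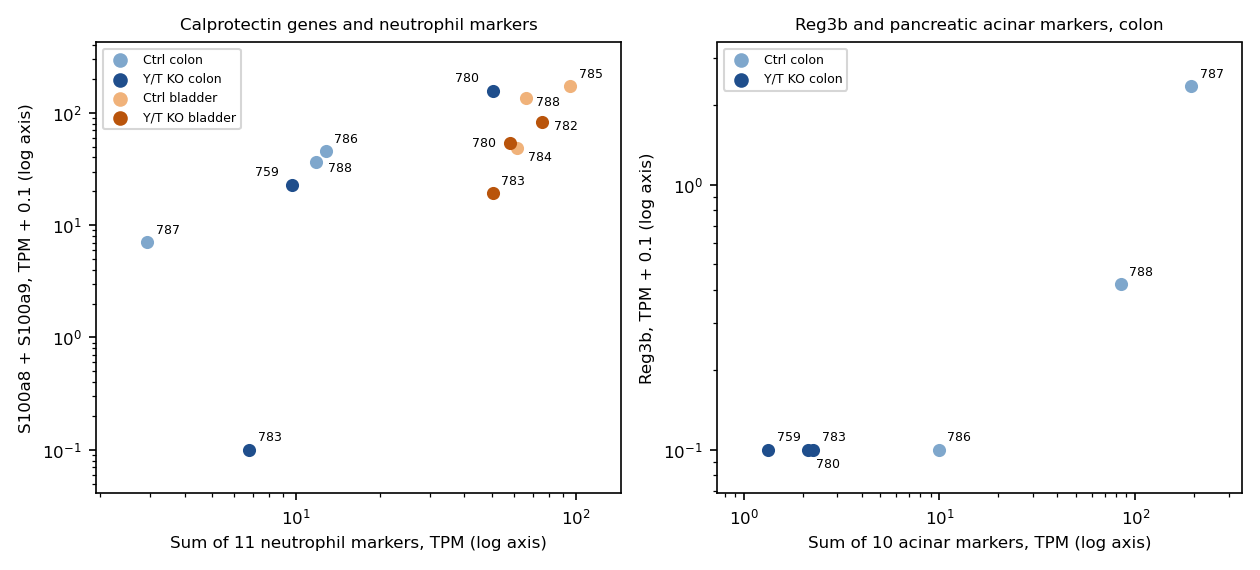
Left, sum of *S100a8* and *S100a9* TPM + 0.1 against the sum of 11 neutrophil markers (without *Ly6g*) in 12 libraries, both on log axes and labeled by mouse. Right, *Reg3b* TPM + 0.1 against the sum of 10 pancreatic acinar markers in 6 colon libraries, where the 2 libraries with detected *Reg3b* (Ctrl mice 788 and 787) are those with acinar sums of 84.1 and 192.6 TPM.

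*Lcn2* measured 9.23, 6.74, and 5.02 TPM among Ctrl colons, against 6.19, 6.51, and 19.5 TPM among Y/T KO colons, so that mouse 780 alone was above the Ctrl range. The difference of 0.48 (SE, 0.47; limma adjusted p = 0.753) was -0.07 without that mouse. In bladder *Lcn2* measured 36.3, 49.5, and 23.9 TPM among Ctrl mice, against 33.9, 11.5, and 20.4 TPM among Y/T KO mice. There the difference was -0.81 (SE, 0.42; limma adjusted p = 0.427), with 2 of 3 Y/T KO mice below all Ctrl mice.

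Mouse 780 was the highest colon library for 6 of the 10 members (*Lcn2*, *Ang4*, *Retnlb*, *Pla2g2a*, *S100a8*, and *S100a9*). *S100a8* and *S100a9* varied together, as did *Ang4*, *Retnlb*, and *Pla2g2a*, so that these are not separate observations. The share of all genes that were highest in this library was not counted. The same library had 39.1 TPM of *Il1b* (interleukin 1β), against 2.11 to 8.85 TPM in the other colon libraries, and 101.6 TPM of *Socs3* (an inhibitor induced by cytokine signaling), against 9.12 to 17.5 TPM. *Duoxa2*, a maturation factor of the epithelial hydrogen peroxide source DUOX2, was at 98.6 TPM there and at 5.88 to 25.2 TPM elsewhere in colon, and was named after its values were seen. Bladder of the same mouse was not the highest library for any member. Ctrl bladder of mouse 785 was the highest bladder library for *Lyz2*, *Lcn2*, *S100a8*, and *S100a9*, 4 of the 7 members detected in bladder. The share of all genes highest in that bladder library was not counted either.

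*Reg3b* and *Reg3g*, C-type lectins 92802 bases apart on chromosome 6, were the least abundant members of the colon. *Reg3b* was detected only in Ctrl colon of mouse 788 (0.322 TPM, a mean of 0.322 reads per base) and of mouse 787 (2.25 TPM, 1.97 reads per base), and was listed at 0 in the other 10 libraries. *Reg3g* measured 0.191, 0, and 0.587 TPM among Ctrl colons, against 0, 0.0431, and 0.210 TPM among Y/T KO colons. Both were under the filter in colon, and an exact two-sided permutation test of 3 against 3 gave p = 0.4 for *Reg3b* and p = 0.7 for *Reg3g*, where the smallest p this design allows is 0.10. Pancreatic acinar genes were highest in the same 2 libraries as *Reg3b*. Leaving out *Cela1* and *Clps*, which were at 514 TPM or more and at 30.4 TPM or more in each colon library, the 10 other acinar markers summed to 84.1, 9.90, and 192.6 TPM in Ctrl colons 788, 786, and 787, against 1.34 to 2.27 TPM among Y/T KO colons, where 6 to 8 of the 10 were listed at 0. Their part in the *Reg3b* values was not tested. In bladder *Reg3g* measured 1.02, 0.593, and 7.41 TPM among Ctrl mice, against 3.50, 2.19, and 2.80 TPM among Y/T KO mice. The Y/T KO values lay inside the Ctrl range (log2 difference, 0.68; SE, 0.84; limma adjusted p = 0.742).

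The tissues were compared within each genotype in a limma fit over all 12 libraries, in which 9 members passed the filter (all except *Reg3b*). Between Ctrl colon and Ctrl bladder, 5 of 9 members were called, a share near the 50.4% of all 19744 genes. *Ang4*, *Retnlb*, and *Pla2g2a* were higher in colon (25.2% of all genes were) and *Lcn2* and *Reg3g* were lower (25.2% were). *Pla2g2a* and *Retnlb* were listed at 0 in each bladder library, so that no fold is given (limma adjusted p = 8.3e-09 and 0.00559). *Ang4* in bladder ran from 0.248 to 0.779 TPM over both genotypes, and its Ctrl difference was 4.38 (SE, 1.07; adjusted p = 0.00594). *Lcn2* was lower in Ctrl colon than in Ctrl bladder (log2 difference, -2.09; SE, 0.49; limma adjusted p = 0.00415). *Reg3g* differed by -2.51 (SE, 0.90; limma adjusted p = 0.0359), a call that was lost without Ctrl colon 788 or 786 or Ctrl bladder 788 (adjusted p, 0.0708 to 0.147), and with a pseudocount of 1 TPM (0.060) or no filter on low values (0.0519). The *Lyz2* difference did not reach the threshold (-0.68; SE, 0.29; limma adjusted p = 0.0689), and reached it without Ctrl colon 786 (adjusted p = 0.00858) or Ctrl bladder 784 (0.0117).

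Between Y/T KO colon and Y/T KO bladder, 4 of 9 members were called, where 51.4% of all genes were. The 3 higher in colon were again *Ang4* (7.25; SE, 1.07; limma adjusted p = 0.000235), *Retnlb* (adjusted p = 0.00033), and *Pla2g2a* (adjusted p = 2.2e-09), and 25.9% of all genes were higher. *Reg3g* was lower (-3.96; SE, 0.90; limma adjusted p = 0.00322), as were 25.5% of all genes. *Lcn2* differed by -0.83 (adjusted p = 0.177) and was called without Y/T KO colon 780 (-1.37; limma adjusted p = 0.0223). *Lyz1* differed by 0.70 (adjusted p = 0.334) and was called without Y/T KO colon 759 (1.51; limma adjusted p = 0.00337). For *Lyz2*, the difference of -0.63 (adjusted p = 0.0871) was called without Ctrl colon 786 (adjusted p = 0.0382) or Ctrl bladder 784 (0.0459), which enter through the shared spread.

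Whether the genotype difference itself differed between colon and bladder was tested by the interaction term of this fit. It was called for 0 of 9 members and for 0.0608% of all genes. At an unadjusted p below 0.05, *Pla2g2a* alone passed (1.28; SE, 0.48; limma adjusted p = 0.335), where 11.9% of all genes did, and this gene was listed at 0 in bladder of both genotypes. The *Lyz1* differences in colon and bladder were not shown to differ (0.96; SE, 0.81; limma adjusted p = 0.660), nor were those of *Lcn2* (1.26; SE, 0.69; adjusted p = 0.497).

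By level, *Lyz2* stood above all other members in each group without overlap (783 ± 366 TPM in Ctrl colon and 767 ± 114 TPM in Y/T KO colon; 1466 ± 487 and 1433 ± 227 TPM in bladder; SD, n = 3). In Ctrl colon it was followed by *Pla2g2a* (20.6 ± 4.33 TPM), *S100a9*, *S100a8*, *Ang4*, *Lyz1*, and *Lcn2*, whose neighbors in this order overlapped, and then, without overlap with *Lcn2*, by *Retnlb*, *Reg3b*, and *Reg3g*. In Y/T KO colon *Ang4* was the second (116 ± 98.5 TPM), followed by *Lyz1* (53.6 ± 38.5 TPM) and *Pla2g2a* (53.4 ± 28.3 TPM), and all neighbors from *Ang4* to *Lcn2* overlapped. In Ctrl bladder *S100a9*, *S100a8*, and *Lcn2* followed *Lyz2* with overlap, and *Lyz1* lay below *Lcn2* without overlap. In Y/T KO bladder *Lyz1* lay among them, between *S100a9* (32.9 ± 19.1 TPM) and *Lcn2*, with overlap on both sides.

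Of 19 relatives of the members in the same families, 11 were tested in colon and 8 in bladder, and 0 were called in either, with 1 at an unadjusted p below 0.05 in each (against 9.73% and 14.8% of all genes). In colon the lowest p was that of *Reg1* (0.632 to 13.4 TPM in Ctrl, listed at 0 in Y/T KO; limma adjusted p = 0.193), which was highest in the Ctrl libraries of mice 787 and 788 as *Reg3b* was. Next came *Pla2g2f* (56.4 to 71.3 against 73.7 to 85.8 TPM) and *Retn*, the gene of resistin (2.45 to 15.4 against 2.29 to 4.27 TPM). In bladder the lowest p was that of *Rnase4*, a ribonuclease beside the angiogenin genes (488 to 548 against 567 to 661 TPM; limma adjusted p = 0.196). *Retnla*, a resistin-like gene expressed by alternatively activated macrophages, measured 865, 639, and 110 TPM among Ctrl bladders, against 1635, 1054, and 2622 TPM among Y/T KO bladders. The groups did not overlap, and the difference was 2.07 (SE, 0.85; limma adjusted p = 0.341). Of all bladder genes, 10.4% were higher in each Y/T KO library than in any Ctrl library. *Pla2g2e* was the third there (0.895 to 2.34 against 0.857 to 1.32 TPM).

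Among 25 other antimicrobial and barrier genes, 16 were tested in colon and 14 in bladder, and 0 were called in either. In colon, 3 of the 16 were higher and 2 were lower at an unadjusted p below 0.05, which 9.73% of all genes passed. Of the 16 colon differences 9 were positive and 7 negative (median, 0.07, beside 0.0065 for all genes). *Ido1*, which depletes tryptophan, ranged over 0.529 to 0.881 TPM among Ctrl mice, against 1.11 to 4.68 TPM among Y/T KO mice (1.95; SE, 0.54; limma adjusted p = 0.370). *Ccl28*, a mucosal chemokine with antimicrobial activity, ranged over 84.6 to 140.9 TPM among Ctrl mice, against 64.6 to 70.6 TPM among Y/T KO mice (-0.55; SE, 0.18; limma adjusted p = 0.434), and *Itln1* was the third. In bladder, 11 of the 14 differences were negative and 3 positive (median, -0.40), where 50.3% of all genes were positive (median, 0.0021). At an unadjusted p below 0.05, 2 of the 14 passed, against 14.8% of all genes. *Slpi*, a secreted leukocyte protease inhibitor, measured 555, 1098, and 732 TPM among Ctrl mice, against 496, 64.3, and 193 TPM among Y/T KO mice (-2.06; SE, 0.71; limma adjusted p = 0.282). *Wfdc2*, of the same protein family, ranged over 747 to 930 TPM among Ctrl mice, against 573 to 736 TPM among Y/T KO mice (-0.42; SE, 0.10; limma adjusted p = 0.174). *Lypd8*, which holds flagellated bacteria off the colonic epithelium, was at 4.53 to 9.20 against 2.73 to 6.63 TPM in bladder.

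Of 29 cytokines, receptors, and signaling genes of the pathways that induce such effectors, inhibitors such as *Socs3* included, 21 were tested in colon and 22 in bladder, and 0 were called in either. In colon 0 passed an unadjusted p below 0.05, where 9.73% of all genes did. Of the 21 colon differences 13 were positive and 8 negative (median, 0.13, beside 0.0065 for all genes). The lowest p-values there were those of *Cebpd*, *Il18*, and *Il1b* (limma adjusted p = 0.555 to 0.596). In bladder 18 of the 22 differences were negative and 4 positive, where 50.3% of all genes were positive. Their median was -0.28, beside 0.0021 for all genes. At an unadjusted p below 0.05, 3 of the 22 passed, against 14.8% of all genes. *Il22ra1*, the epithelial receptor chain of interleukin 22, measured 2.87, 4.42, and 2.94 TPM among Ctrl bladders, against 1.72, 0.748, and 1.55 TPM among Y/T KO bladders (-1.34; SE, 0.36; limma adjusted p = 0.188). *Il17rc*, a receptor chain of interleukin 17, was at 31.3 to 34.8 against 20.5 to 26.2 TPM (-0.46; SE, 0.11; limma adjusted p = 0.158). Neither gene overlapped between the genotypes in bladder, where 10% of all genes were lower in each Y/T KO library than in any Ctrl library. *Socs3* was at 18.0 to 58.3 against 10.8 to 18.3 TPM, with overlap.

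Of 13 acute-phase and neutrophil-attracting genes, 13 were tested in colon and 11 in bladder, and *Saa1* (serum amyloid A1) alone was called, in colon. *Saa1* measured 0.0282 to 0.0381 TPM among Ctrl colons, against 2085, 4208, and 5284 TPM among Y/T KO colons (mice 759, 783, and 780; limma adjusted p = 2.6e-06). The order of the Y/T KO mice for *Saa1* was that of neither *Lyz1* nor *Ang4*. Of the 13 colon differences 6 were positive and 7 negative (median, -0.09, beside 0.0065 for all genes). In bladder 0 were called, and 8 of the 11 differences were negative and 3 positive (median, -0.48). Of all genes there, 50.3% had a positive difference (median, 0.0021).

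The genes most like each member were taken as the 3 with the highest Pearson r among 19743 others over the 12 libraries, on log2(TPM + 0.1) with the mean of each tissue removed. For *Lyz1* these were *Itgbl1* (0.96), *Nomo1* (0.95), and *Nes*, the gene of nestin (0.94). *Nes* ranged over 3.90 to 4.92 TPM among Ctrl colons, against 7.14, 16.0, and 13.2 TPM among Y/T KO colons 759, 783, and 780, so that mouse 759 was lowest and mouse 783 highest of the Y/T KO mice as for *Lyz1*. In bladder *Nes* ranged over 15.8 to 19.9 TPM among Ctrl mice, against 25.3 to 44.1 TPM among Y/T KO mice, with no overlap. *Nes* was picked by its r to *Lyz1* in these same libraries, so the shared order and separation follow from that choice. For *Lyz2* they were *Mpeg1* (perforin-2 of macrophages, 0.94), *Cybb* (a subunit of the phagocyte oxidase, 0.94), and *Gm26387* (0.92). *S100a8* and *S100a9* were each other's nearest gene (0.99), and *Cxcr2*, a chemokine receptor of neutrophils, was among the 3 for both (0.97 and 0.94). The other genes of the calprotectin lists were *Duoxa1* (0.95 to *S100a8*) and *Rpp30* (0.94 to *S100a9*). For *Pla2g2a* the 3 were *Sele*, *Krt13*, and *Krt84* (0.94 to 0.98), for *Ang4* *Ccnc*, *Plet1*, and *Gng10* (0.93 to 0.97), and for *Retnlb* *Hspe1*, *Tmem174*, and *Apol10a* (0.95 to 0.97). *Pla2g2a* and *Retnlb* were listed at 0 in each bladder library, so that only the colon libraries add to their shared variation. *Krt84* and *Tmem174* were listed at 0 in bladder too. *Sele* was at 0 to 0.0579 TPM among Ctrl colons, against 0.103 to 1.05 TPM among Y/T KO colons. For *Lcn2* they were *Ddx39b*, *Dok2*, and *Rbm28* (0.90 to 0.92). The points share tissue, genotype, and library, and the values are a description.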

How the data were processed

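Whole colon and bladder RNA of 9 mice (3 gave both tissues) gave 12 stranded poly(A) libraries, grouped by their labels. The authors ran bcl2fastq, FastQC, HISAT2, StringTie, and DESeq2 (versions not given in the sources used here) on GRCm38. They deposited coverage (signal per base), FPKM, and TPM values per gene, with no read counts, and rows of a gene ID were summed here. Size factors (median of ratios) rescaled the TPM, a gene was tested if 3 or more libraries reached 0.5 TPM, and log2(TPM + 0.1) was tested with limma 3.58.1 in R 4.3.3 (trend and robust, Benjamini-Hochberg, called below 0.05). The script was tested on simulated data. TPM of single libraries and their means are as deposited. Depth was taken from the ratio of deposited coverage to FPKM; counting error was not estimated. P-values of the comparisons within a tissue measure the spread between mice, in which counting error is included. In the fit of all 12 libraries without a block, libraries of the same mouse were treated as separate units.

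The 10 members and all gene lists were chosen with earlier results of these data known. Text names the members, the 3 genes most like each (those of Reg3g are not reported here), called list genes (else the 3 lowest p per tissue), and leading markers. Same-mouse libraries deviated together weakly (r = -0.01, 0.07, and 0.04 for mice 788, 783, and 780, over 19744 genes), and the mouse was a block in an alternative fit. Retnlb and Pla2g2a had no promoter in the table used, and protein sequences were not used here.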

Additional observations from a re-analysis of the deposited data

Results flagged for a closer look

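The *Saa1* difference between genotypes differed between the tissues by 13.16 on the log2(TPM + 0.1) scale (colon minus bladder; interaction term, limma adjusted p = 0.00017). *Saa1* was at 2085 to 5284 TPM in Y/T KO colon and at 0.0758 to 1.77 TPM in Y/T KO bladder, and at 0.0282 to 0.0625 TPM in the 6 Ctrl libraries. Of the 9 antimicrobial effectors tested, 0 were called for such a difference.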

How the results depend on the processing

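In the genotype comparisons, 0 members were called under any planned setting except 1 (*Lyz1*, colon) without Y/T KO colon 759, so that member counts ran from 0 to 1 with libraries left out. All genes called in colon numbered 24, and 6 with no filter on low values, 76 when the 12 libraries shared one fit with no mouse block, 76 with the mouse as replicate block, and 1 to 63 with a library left out. In bladder they numbered 55, and 11 to 51 with a library left out. The interaction was called for 12 genes, 19 with a pseudocount of 1 TPM, 22 without trend and robust options, and 8 to 29 with a library left out. Between Ctrl tissues, 3 members rather than 5 were called with a pseudocount of 1 TPM (not *Retnlb* or *Reg3g*). The block changed no call of a member. With a pseudocount of 1 TPM the *S100a9* interaction turned from -0.29 to 0.71. Differences that turned with a library left out ran as follows, none of them called. In colon *Lyz2* ran from -0.10 to 0.39, *Lcn2* from -0.069 to 0.76, *S100a8* from -3.17 to 1.52, and *S100a9* from -3.56 to 1.40. In bladder *Lyz2* ran from -0.27 to 0.21, *Reg3g* from -0.0012 to 1.69, and *Ang4* from -0.44 to 0.0702. Between Ctrl tissues *Lyz1* ran from -0.54 to 0.0102, and between Y/T KO tissues *S100a8* from -3.82 to 0.92 and *S100a9* from -4.39 to 0.62. In the interaction *Lyz2* ran from -0.15 to 0.35, *S100a8* from -1.95 to 2.79, and *S100a9* from -2.42 to 2.59. The cause of these changes was not tested. With TPM as deposited, *Lyz2* was called lower in colon in both genotypes (adjusted p = 0.0296 in Ctrl and 0.0339 in Y/T KO). With 3 libraries per group, the spread between mice limits what could be detected.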
